A study of Mus musculus with 10 samples.

Results

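RNA-seq libraries of sorted luminal mammary epithelial cells from RSK2(-/-) mice (KO) at diestrus were compared with libraries from RSK2(+/+) mice (WT) at the same stage. The comparison was chosen by genotype and stage and held 4 of the 10 libraries of the study, 2 KO and 2 WT, which are all the diestrus libraries in the table used here. The other 6 libraries, 3 KO and 3 WT, came from estrus and entered the fit as a source of the spread between libraries. All mice were of the C57BL/6J strain and aged 12 weeks, and no treatment beyond monitoring of the cycle is stated. Cells were taken from the fourth mammary glands and sorted for high EpCAM, low CD49f, presence of Sca-1 and absence of CD49b, so all groups share this gate. How the RSK2 allele was made, which part of the gene it removes and whether a library came from 1 mouse or a pool are not given in the sources used here, so p-values measure the spread between libraries. The letters WT also stand in the titles of KO libraries; the genotype used here is that of the genotype field, and the short library names gave the same one for all 10 libraries.

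RSK2 is a serine/threonine kinase encoded by the X-linked gene Rps6ka3. ERK1/2 phosphorylate and activate it downstream of growth factor receptors, and it phosphorylates transcription factors and parts of the translation machinery. Luminal cells with Sca-1 and without CD49b are known as the hormone-sensing cells of the mammary duct: they carry receptors for estrogen, progesterone and prolactin and pass the signal to their neighbours through secreted factors such as amphiregulin, RANK ligand and Wnt4. Diestrus is the stage of the cycle at which progesterone from the corpus luteum is high.

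The 10 libraries held between 14108057 and 15307238 normalized counts, and between 20831 and 22122 genes had a value above 0. The values are read counts that the authors scaled per library and rounded to whole numbers, without correction for gene length, so they are compared between libraries and not between genes. Principal component 1 (29.3% of the variance) placed the KO diestrus libraries at 28.6 and 33.1 and the WT diestrus libraries at 18.9 and 28.9. On component 2 (17.2%), KO had -25.0 and -37.2 and WT 9.39 and 30.4. Genes of hormone-sensing luminal cells were present in all 4 diestrus libraries: Esr1, the estrogen receptor, had 2786 and 2105 normalized counts in WT (libraries 1 and 2, in this order throughout) and 1988 and 2161 in KO, and Pgr, the progesterone receptor, had 1203 and 1688 in WT and 994 and 1384 in KO. Both receptors overlapped between the genotypes.

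Transcripts of the targeted gene were not lower in the KO libraries. Rps6ka3 (ENSMUSG00000031309, GRCm38 chrX:159210307-159368244) had 165 and 139 normalized counts in the WT diestrus libraries and 156 and 165 in the KO diestrus libraries (limma log2 difference, KO minus WT, 0.08 ± 0.20, SE; exact two-sided permutation p = 1, where 2 against 2 libraries allow no p below 0.333). The groups overlapped. The count covers the whole gene, and reads over a deleted part were not counted separately, so the value does not check the genotype labels. Of the 5 other RSK and MSK kinases, 4 had log2 differences between -0.23 and 0.48: Rps6ka1 at -0.16, Rps6ka2 at -0.03, Rps6ka4 at -0.23 and Rps6ka6 at 0.48. The fifth, Rps6ka5, which encodes MSK1, had 92 and 98 in WT and 79 and 52 in KO (log2 -0.56 ± 0.34, SE). Of these 6 kinases, 0 passed the test and 2, Rps6ka4 and Rps6ka5, were below WT in both KO libraries, as were 21.6% of all tested genes.

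Among the genes of the sort, Epcam had 41043 and 44508 normalized counts in WT and 52849 and 48066 in KO (log2 0.24 ± 0.24, SE). Ly6a, which encodes Sca-1, had 17047 and 20692 in WT and 14585 and 10512 in KO (log2 -0.60 ± 0.32, SE; limma adjusted p = 0.881). Itga6 (CD49f) overlapped between the genotypes (log2 -0.05), as did Itga2 (CD49b), with 251 and 196 in WT and 236 and 339 in KO. The exact two-sided permutation p was 0.333, the smallest possible, for Epcam and Ly6a.

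At diestrus, 6 of 15180 tested genes (0.0395%) differed between KO and WT (limma, Benjamini-Hochberg adjusted p under 0.05), with 4 higher (0.0264%) and 2 lower (0.0132%) in KO. A gene that passed this test is said to be called. The 4 higher genes were Plac9a, Plac9b and Gm9780, near-identical copies in 1 segment of chromosome 14, and Ank, which encodes a transporter of pyrophosphate. The 2 lower genes were D630003M21Rik and the unprocessed pseudogene Gm12873. Without adjustment 899 genes (5.92%) had a p under 0.05, where 759 would pass by the threshold alone. Groups of 2 against 2 often do not overlap: 6537 genes (43.1%) had no overlap, 3255 (21.4%) with both KO libraries above both WT libraries and 3282 (21.6%) with both below. The count of called genes depended on the spread used: it was 98 (45 higher, 53 lower) with the diestrus libraries alone and 147 (51 higher, 96 lower) with library weights, and each of these sets held all 6. It was 0 without any 1 of the 4 diestrus libraries, and leaving out 1 estrus library gave between 1 and 28.

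The Plac9 genes encode a small secreted protein named after placenta. The sequence that the 3 copies share near their starts is shown because it lets a reader see how alike the copies are. A stretch of 222 bases, taken from RefSeq's promoter windows (GRCm38.p6, minus strand), was the same in Plac9a (chr14:25902922-25903143), Gm9780 (chr14:26042688-26042909) and Plac9b (chr14:26182302-26182523). For Plac9a the first of 3 windows was used. There the stretch began 250 bases before the annotated start and ended before reaching it. Capitals mark the 50 bases that follow the annotated start of Gm9780 and Plac9b, whose windows were the same over all 300 bases.
Plac9 shared stretch: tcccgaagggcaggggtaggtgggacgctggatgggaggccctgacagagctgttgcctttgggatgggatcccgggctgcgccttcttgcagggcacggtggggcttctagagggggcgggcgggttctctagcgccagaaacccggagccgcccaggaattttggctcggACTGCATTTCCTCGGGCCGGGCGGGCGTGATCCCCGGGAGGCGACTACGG
Of all 50-base words in their GENCODE M21 transcripts, 96.6% in Plac9b, 99.4% in Gm9780 and 99.7% in Plac9a also occurred in transcripts of other genes. How reads that fit several copies were counted is not given in the sources used here, so the 3 calls are uncertain as to the copy and are read as 1 signal. They still stand as 3 separate calls and as 3 tests in the adjustment of p. The adjusted p of Ank and Gm12873, 0.0421 each (limma), was not recomputed with 1 copy. Whether either would then be called was not tested.

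Plac9b (ENSMUSG00000072674, chr14:26167405-26182480) had 111 and 77 normalized counts in the WT libraries and 416 and 637 in the KO libraries, or 94.0 ± 24.0 against 526.5 ± 156 (mean ± SD, n = 2 and 2). On the log2(value + 1) scale it rose by 2.46 ± 0.31 (SE; limma adjusted p = 0.0353), which is 5.52 fold. Both KO libraries lay above both WT libraries, with no value between 111 and 416. Gm9780 (ENSMUSG00000094800, chr14:26027282-26042711) had 155 and 113 in WT and 543 and 854 in KO, a rise of 2.35 ± 0.31. Plac9a (ENSMUSG00000095304, chr14:25887506-25903100) had 123 and 89 in WT and 416 and 662 in KO, and its log2 value rose by 2.32 ± 0.31. The adjusted p of both was also 0.0353 (limma). At estrus the values of Plac9b were 382, 320 and 274 in WT and 754, 493 and 396 in KO, so the WT diestrus libraries held the lowest values of all 10 libraries (log2 difference at estrus 0.71 ± 0.26, SE; limma adjusted p = 0.110). With 1 diestrus library left out, the log2 difference of Plac9b ran from 2.16 to 2.77 and its adjusted p from 0.0621 to 0.434. The calls of the 3 copies were also lost without the trend in the spread, without the filter on low values and without WT estrus 2.

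Genes for the transmembrane protein Tmem254 lie between and beside these copies in the same segment, also in 3 near-identical copies, and none was called. Tmem254a (chr14:25923300-25927672) had 2438 and 2119 normalized counts in WT and 4426 and 3921 in KO (log2 0.87 ± 0.16, SE; limma adjusted p = 0.128). Tmem254b and Tmem254c had log2 differences of 0.88 each, with KO above WT in both libraries. Between 73.1% and 100% of the 50-base words of the Tmem254 copies also occurred in transcripts of other genes, which makes these values uncertain in the same way.

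Ank (ENSMUSG00000022265, chr15:27466677-27594909, plus strand) had 58 and 58 normalized counts in the WT libraries and 184 and 201 in the KO libraries. It rose by 1.71 ± 0.25 on the log2 scale (SE; limma adjusted p = 0.0421), or 3.28 fold. The KO libraries lay together and far above WT, and 0.45% of the 50-base words of Ank occurred elsewhere, mainly in the microRNA gene Mir7117 that overlaps it. At estrus Ank had 43, 47 and 58 in WT and 95, 93 and 86 in KO and was called there too (log2 0.89 ± 0.20, SE; limma adjusted p = 0.0386). With 1 diestrus library left out, the diestrus difference of Ank ran from 1.65 to 1.78 with an adjusted p from 0.165 to 0.442. Its call was also lost with equal totals, with either other filter, with the replicate number as a block (adjusted p = 0.0549) and without KO estrus 1, KO estrus 2 or WT estrus 2.

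D630003M21Rik (ENSMUSG00000037813, chr2:158182533-158229222, minus strand) is a protein-coding gene with no established function. It had 81 and 98 normalized counts in the WT diestrus libraries and 5 and 6 in the KO diestrus libraries. It fell by 3.80 on the log2 scale (SE 0.40; limma adjusted p = 0.0106), which is 13.9 fold lower. At estrus its values were 60, 57 and 35 in WT and 44, 36 and 24 in KO, which overlapped (log2 -0.54 ± 0.33, SE), so the KO diestrus libraries held the lowest values of all 10. Gm12873 (ENSMUSG00000083494, chr4:122778154-122793749, minus strand), an unprocessed pseudogene, had 1923 and 2133 in WT and 378 and 478 in KO at diestrus (log2 -2.25 ± 0.32, SE; limma adjusted p = 0.0421; 4.76 fold lower). At estrus it had 1724, 1279 and 2558 in WT and 972, 1619 and 873 in KO, again with overlap. With the filter at a mean of at least 50, D630003M21Rik was not tested, since its mean over the 10 libraries was 44.6. Its call was lost without any 1 diestrus library (log2 from -3.93 to -3.66) and without the filter on low values. That of Gm12873 was lost there (log2 from -2.42 to -2.08 with 1 diestrus library left out) and also with equal totals, quantile normalization, a mean of at least 50, no trend, the replicate number as a block (adjusted p = 0.0519), and without KO estrus 1 or WT estrus 2. None of the 50-base words of D630003M21Rik or Gm12873 occurred in transcripts of other genes.

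**Figure D1:**
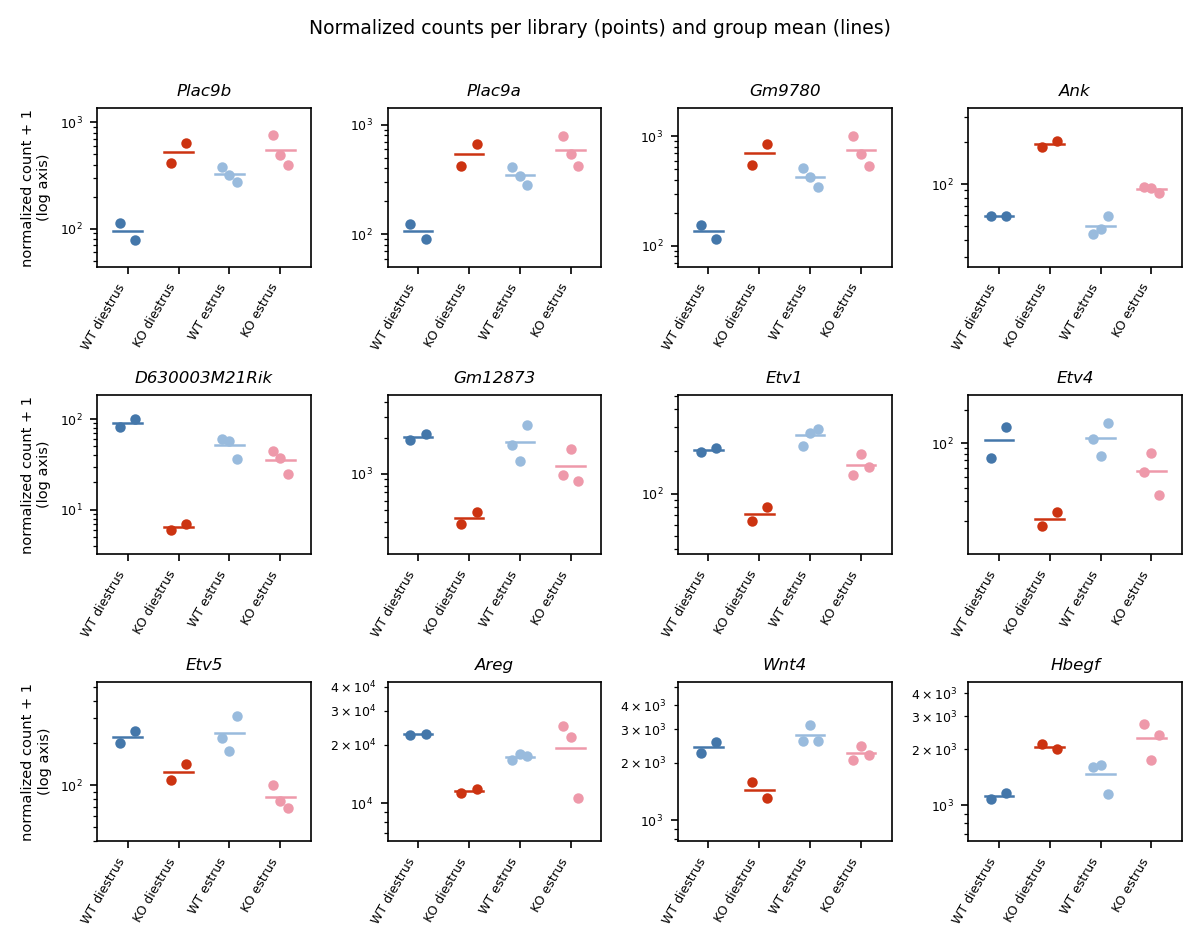
Normalized count plus 1 (log axis) in each of the 10 libraries for 12 genes; points are libraries, short lines are group means, and groups are WT and KO at diestrus and at estrus. For Plac9b the KO diestrus libraries sit at 416 and 637 against 111 and 77 in WT, and for D630003M21Rik at 5 and 6 against 81 and 98.

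Beyond the 6 called genes, the rule for named genes gave those of smallest unadjusted p without overlap, and these are listed by value only. On the higher side were Degs1, Lrmda, Sept4, the Tmem254 genes and Slc41a2. Degs1, the desaturase of ceramide synthesis, had 286 and 311 normalized counts in WT and 678 and 573 in KO (log2 1.06 ± 0.17, SE; limma adjusted p = 0.0721). Sept4, a septin, had 64 and 43 in WT and 271 and 258 in KO (log2 2.31 ± 0.40; adjusted p = 0.0913), and its log2 difference at estrus, where it was called, was 2.11. Lrmda, linked to melanocyte differentiation, had 10 and 4 in WT and 54 and 57 in KO (log2 2.93 ± 0.49; adjusted p = 0.0783). The magnesium transporter gene Slc41a2 had 78 and 63 in WT and 205 and 272 in KO (adjusted p = 0.128). All of these were called with library weights, and all except Lrmda with the diestrus libraries alone.

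On the lower side the gene closest to the threshold was Nnt, which encodes a mitochondrial transhydrogenase that makes NADPH. C57BL/6J mice are known for a deletion within this gene. Nnt (ENSMUSG00000025453, chr13:119335448-119408997) had 530 and 617 normalized counts in WT and 168 and 116 in KO (log2 -2.03 ± 0.31, SE; limma adjusted p = 0.0572). At estrus Nnt had 250, 192 and 287 in WT and 238, 303 and 154 in KO, which overlapped (log2 -0.10), and the difference between the stages was -1.92 ± 0.40 (SE; adjusted p = 0.165). Of its 50-base words 46.9% also occurred under other gene identifiers, nearly all under a further entry of the same name.

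Other genes on the lower side included enzymes, transporters and a structural protein. Alox15, a lipoxygenase, had 2367 and 1810 normalized counts in WT and 536 and 493 in KO (log2 -2.01 ± 0.34, SE; limma adjusted p = 0.0783). Slc5a6, the sodium-dependent multivitamin transporter, had 5086 and 4650 in WT and 2098 and 2252 in KO (log2 -1.16 ± 0.20; adjusted p = 0.0913), and at estrus, where it was called, the log2 difference was -1.14. The collagen prolyl hydroxylase gene P4ha2 had 1384 and 2318 in WT and 302 and 231 in KO (adjusted p = 0.128). These groups did not overlap, and P4ha2 was also called at estrus (log2 -1.93). Slc2a3, the glucose transporter GLUT3, had 65 and 401 in WT and 10 and 1 in KO (log2 -5.12 ± 0.95; adjusted p = 0.128), with most of its WT counts in 1 library. The Ras-like GTPase gene Rasd1, the histone gene Hist1h2be, Pdlim4 and Tox2 had log2 differences between -2.39 and -1.01 (adjusted p between 0.0783 and 0.133). Adjusted p values of the named lower genes thus began at 0.0572, just above the threshold.

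**Figure D2:**
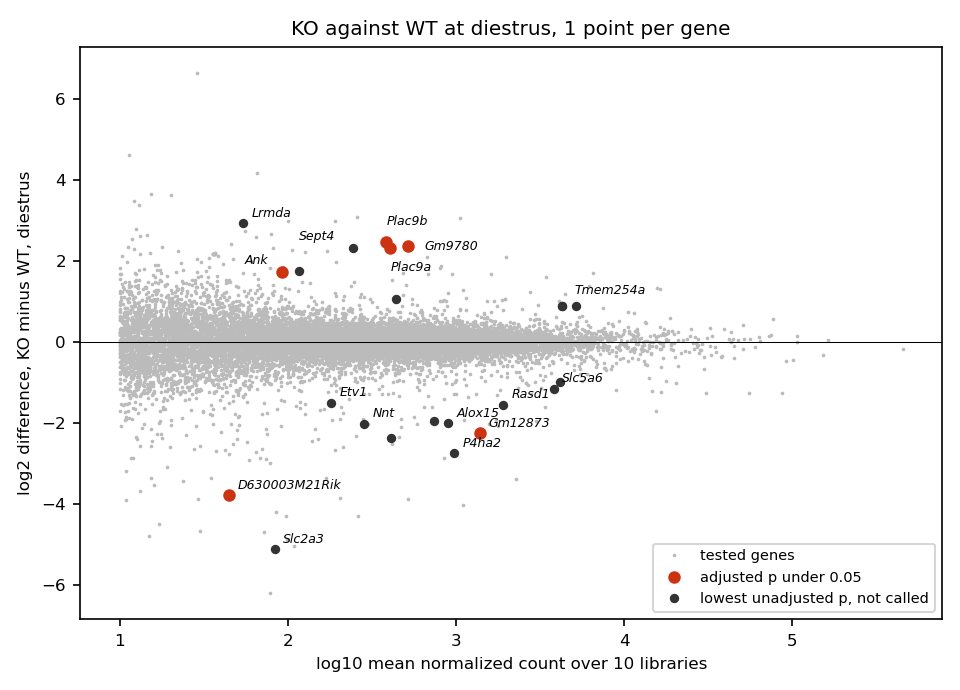
Each point is a tested gene, with the log10 of its mean normalized count over the 10 libraries on the x axis and the log2 difference between KO and WT at diestrus on the y axis. The 6 called genes are red; the black points are the genes of lowest unadjusted p that were not called (named symbols without overlap, mean of at least 50), from Lrmda at 2.93 to Slc2a3 at -5.12.

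Genes of the ERK cascade and its feedback had a median difference near 0, and the 3 ETS factor genes of the PEA3 group stood at the low end of the list. Of 33 tested members 0 were called, 6 were above and 6 below WT in both KO libraries (21.4% and 21.6% of all tested genes), and the median log2 difference was 0.05 against -0.004 over all tested genes. Etv1, Etv4 and Etv5 are transcription factors whose transcripts are known to follow ERK activity. Etv1 (ENSMUSG00000004151, chr12:38779380-38870484) had 196 and 209 normalized counts in WT and 63 and 79 in KO (log2 -1.51 ± 0.24, SE; limma adjusted p = 0.0649). Etv4 had 73 and 138 in WT and 17 and 23 in KO (log2 -2.29 ± 0.46; adjusted p = 0.150), and Etv5 had 198 and 241 in WT and 108 and 140 in KO (log2 -0.82 ± 0.30; adjusted p = 0.678). The 3 were picked out of the list after their values were seen. In each, both KO libraries lay below both WT libraries, and the log2 differences at estrus were -0.70 for Etv1, -1.02 for Etv4 and -1.49 for Etv5, which was called there. Etv1 was called at diestrus with library weights, with the diestrus libraries alone, without KO estrus 3 and without WT estrus 1.

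Promoter windows (250 bases before to 50 after an annotated start; RefSeq, GRCm38.p6) were found for 2 of these 3 genes, Etv1 and Etv5, with 2 starts each. They are shown because the genes lay below WT together and encode factors that bind the ETS motif. The motif GGAAGT, searched on both strands, is in capitals. Of the 4 windows, 2 held it, and these are printed; the window of Etv5 at chr16:22438319-22438618 (minus strand) had 2 matches, and that of Etv1 at chr12:38779832-38780131 (plus strand) had 1.
Etv1: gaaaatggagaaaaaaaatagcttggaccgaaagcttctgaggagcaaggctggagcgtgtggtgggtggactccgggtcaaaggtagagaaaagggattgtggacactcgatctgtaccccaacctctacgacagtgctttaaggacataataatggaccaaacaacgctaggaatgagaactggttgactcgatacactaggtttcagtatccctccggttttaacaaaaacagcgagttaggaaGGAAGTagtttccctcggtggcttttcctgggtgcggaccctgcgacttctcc
Etv5: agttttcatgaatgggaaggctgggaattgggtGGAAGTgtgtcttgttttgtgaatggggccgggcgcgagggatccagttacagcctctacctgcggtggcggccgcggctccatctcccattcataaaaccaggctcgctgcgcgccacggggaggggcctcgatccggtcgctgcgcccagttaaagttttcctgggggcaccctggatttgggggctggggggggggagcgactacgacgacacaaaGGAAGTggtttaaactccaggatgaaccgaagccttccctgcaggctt
Among all 32851 promoter windows of the same length 23.8% held GGAAGT. The cyclic AMP response element TGACGTCA, bound by CREB, a substrate of RSK2, was in none of the 4 windows and in 1.79% of all. A match describes the sequence only.

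Genes for feedback inhibitors of ERK and of its receptor were not called either. Dusp6, an ERK phosphatase, had 3665 and 4941 normalized counts in WT and 5076 and 6849 in KO (log2 0.47 ± 0.23, SE). Errfi1, an inhibitor of the EGF receptor, had 12564 and 11492 in WT and 13334 and 20873 in KO (log2 0.47). Both had KO above WT in each library by a log2 difference of less than 0.5, and Dusp6 is named after its values were seen. The phosphatase gene Dusp1 overlapped, and Ier3 had 5111 and 5933 in WT and 4771 and 3940 in KO. Of 28 immediate-early genes 0 were called, with 8 above and 2 below WT and a median of 0.01, against shares of 21.4% and 21.6% over all tested genes. Fos had 48533 and 61823 in WT and 49075 and 61816 in KO. Of 26 RSK substrates and partners 0 were called, with 8 above and 5 below, beside the same shares, and a median of -0.02.

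Ligands of the EGF family differed among themselves in direction. Of 6 tested members 0 were called, 2 were above and 3 below WT in both KO libraries (21.4% and 21.6% of all tested genes). Areg encodes amphiregulin, the ligand through which hormone-sensing cells act on their neighbours. It had 22596 and 22754 normalized counts in WT and 11312 and 11845 in KO at diestrus (log2 -0.97 ± 0.32, SE; limma adjusted p = 0.595). The libraries of each genotype lay close together, and the groups did not overlap. At estrus Areg had 16776, 17891 and 17417 in WT and 25165, 22050 and 10637 in KO, a wider KO range on both sides of WT (log2 0.06). The difference between the stages was -1.03 ± 0.42 (SE; adjusted p = 0.312). Hbegf, which encodes heparin-binding EGF, had 1077 and 1168 in WT and 2127 and 2003 in KO (log2 0.88 ± 0.22; adjusted p = 0.295), and the log2 difference at estrus was 0.63. Areg was called with the diestrus libraries alone and Hbegf both there and with library weights. Btc, named after its values were seen, had 433 and 428 in WT and 213 and 295 in KO, and Epgn overlapped.

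In each of 4 hormone-related lists more genes lay below than above WT in both KO libraries, and 0 were called. Of 23 genes of hormone-sensing luminal identity, 4 were above and 10 below WT (median log2 -0.13), and of 23 estrogen-induced genes 1 was above and 10 below (median -0.28). Of 22 progesterone-induced or paracrine genes 4 were above and 7 below (median -0.22, mean 0.005), and of 12 prolactin and STAT5 genes 0 were above and 4 below (median -0.31). The shares over all tested genes were 21.4% above and 21.6% below, with a median of -0.004. With 1 diestrus library left out, the 4 medians kept their sign but moved: that of the estrogen-induced genes ran from -0.34 to -0.04 and that of the progesterone list from -0.49 to -0.03. Several genes stand in more than 1 of these lists, Areg among them, and less RNA of a type per cell and fewer cells of a type cannot be told apart in sorted bulk samples.

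Wnt4, a ligand induced by progesterone, had 2261 and 2583 normalized counts in WT and 1583 and 1302 in KO (log2 -0.75 ± 0.17, SE; limma adjusted p = 0.201). The groups did not overlap, and at estrus the log2 difference was -0.31. Krt19, a luminal keratin, had 116997 and 102524 in WT and 76716 and 84557 in KO (log2 -0.44), while Krt18 overlapped (log2 -0.01). Stat5a, the transcription factor of prolactin signalling, had 3967 and 4862 in WT and 2957 and 3110 in KO (log2 -0.53 ± 0.19; adjusted p = 0.657). Socs3, a feedback inhibitor of cytokine receptors, had 7975 and 9758 in WT and 5183 and 6580 in KO (log2 -0.60 ± 0.28). Its log2 difference at estrus was 0.70 (difference between the stages -1.29 ± 0.36, SE; limma adjusted p = 0.256). Of the other members that the rule named, Prlr, the prolactin receptor, overlapped (31495 and 44371 in WT, 32385 and 26088 in KO). Ctsd overlapped too, while Krt8 and Sgk1 lay below WT in both KO libraries (log2 -0.32 and -0.28).

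The following hormone-related genes are named after their values were seen. Myb, a transcription factor gene known from luminal, estrogen-responsive cells and called lower at estrus, had 516 and 486 normalized counts in WT and 208 and 350 in KO at diestrus (log2 -0.89 ± 0.33, SE; limma adjusted p = 0.707). Greb1, a cofactor induced by estrogen, had 109 and 248 in WT and 13 and 36 in KO, and at estrus 173, 51 and 2 in WT against 21, 18 and 13 in KO. Ccnd1, the gene of cyclin D1, had 500 and 583 in WT and 374 and 352 in KO. The STAT5 target genes Cish, with 352 and 307 in WT and 224 and 184 in KO, and Pim1, with 126 and 145 in WT and 74 and 72 in KO, showed the same order. Prom1, a surface marker of these cells, went the other way, with 6764 and 8146 in WT and 12984 and 13432 in KO (log2 0.83 ± 0.52). None of these 6 was called. Other members of the hormone-related lists also lay above WT in both KO libraries. They were Foxa1 (3555 and 2859 in WT, 4129 and 4202 in KO), Rcan1, Calca, Calcb, Il6st, Errfi1 and Celsr2. The larger counts of members below WT are those given for each list above.

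Among the metabolic lists, most nuclear genes of oxidative phosphorylation and of glycolysis lay slightly below WT in both KO libraries, and none was called. Of 75 oxidative phosphorylation genes 47 were below and 1 above, against 21.6% and 21.4% of all tested genes, with a median log2 difference of -0.15 at diestrus and 0.42 at estrus. Atp5b, a subunit of ATP synthase, had 26270 and 26630 normalized counts in WT and 22267 and 21865 in KO (log2 -0.26), and Atp5a1 had 13118 and 11858 in WT and 11026 and 10868 in KO (log2 -0.19). Cox4i1 overlapped. These are shifts of less than 1.5 fold, and genes of 1 complex share their sources of variation, so the count is a description. The 13 mitochondrially encoded genes had 1 above and 3 below (median -0.09), and the 79 cytosolic ribosomal protein genes 20 above and 10 below (median 0.03 at diestrus and 0.69 at estrus). Relative to the mean of the 10 libraries, the mean log2 level of these ribosomal genes was 0.905, 0.346 and 0.037 in KO estrus 1, 2 and 3. Over all genes with a known length, the KO minus WT difference changed per doubling of transcript length by -0.0718 at estrus and 0.015 at diestrus. The part of this trend in the medians was not tested.

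Of 23 genes of glucose uptake and glycolysis 16 were below and 3 above WT, against 21.6% and 21.4% of all tested genes. The median log2 difference was -0.31, the lowest of the lists outside the cell type markers, and ran from -0.45 to -0.17 with 1 diestrus library left out. Pkm, the muscle-type pyruvate kinase, had 20869 and 24836 normalized counts in WT and 17953 and 17133 in KO (log2 -0.38). Gapdh had 14394 and 17582 in WT and 13179 and 12609 in KO (log2 -0.30), and Ldha, lactate dehydrogenase A, 10892 and 13480 in WT and 10688 and 9526 in KO. In all 3 the gap between the groups was smaller than the range of the WT pair. Pfkfb4, which makes an activator of glycolysis and is named after its values were seen, was above WT (560 and 469 in WT, 823 and 804 in KO; log2 0.67).

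Genes of the ATF4 and integrated stress list had the highest median of these lists, at 0.25. Of 31 tested members 0 were called, 14 were above and 1 was below WT in both KO libraries (21.4% and 21.6% of all tested genes). With 1 diestrus library left out, the median ran from 0.11 to 0.31. Among the 3 members named by the rule, Ppp1r15a (GADD34), a regulatory subunit of the phosphatase acting on eIF2α, had 8934 and 9548 normalized counts in WT and 10631 and 10827 in KO (log2 0.22). Slc3a2, a subunit of amino acid transporters, had 3445 and 4381 in WT and 4736 and 5054 in KO (log2 0.33), and Atf4 itself overlapped (log2 0.12). Larger differences, named after their values were seen, were those of Mthfd2, an enzyme of mitochondrial folate metabolism, with 398 and 550 in WT and 891 and 1216 in KO (log2 1.15 ± 0.33, SE; limma adjusted p = 0.438), and of Psat1, an enzyme of serine synthesis, with 147 and 206 in WT and 332 and 487 in KO. At estrus the log2 difference of Mthfd2 was -0.64, and the difference between the stages was 1.79 ± 0.43 (SE; adjusted p = 0.229). The 30 genes of the unfolded protein response had 3 above and 3 below (median 0.10, and from -0.14 to 0.33 with 1 diestrus library left out). Hspa5, the chaperone BiP, had 66653 and 90920 in WT and 107449 and 121568 in KO (log2 0.55 ± 0.45).

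The remaining lists also held 0 called genes, and their counts stand beside 21.4% above and 21.6% below over all tested genes. In the proliferation list 4 of 37 genes were above and 8 below WT, with a median of 0.003 at diestrus and 0.63 at estrus. Cdk4 and Mcm6 overlapped between the genotypes, and Ccnb2, the gene of cyclin B2 (named after its values were seen), had 11 and 11 normalized counts in WT and 1 and 1 in KO. At estrus Ccnb2 had 10, 34 and 22 in WT and 75, 48 and 88 in KO, and the difference between the stages did not pass the test (limma adjusted p = 0.156). NRF2 and glutathione genes had 3 above and 15 below of 32 (median -0.12), cholesterol synthesis genes 3 above and 8 below of 23 (-0.03), and p53 targets 4 above and 8 below of 29 (-0.16, and from -0.29 to 0.04 with 1 diestrus library left out). Hspa1a, an inducible heat shock protein, had 12640 and 13878 in WT and 8376 and 9405 in KO (log2 -0.58), within a heat shock list of 6 above and 8 below of 21. Among matrix and adhesion genes 9 were above and 4 below of 27, and Cldn4, a tight junction claudin, had 32419 and 53656 in WT and 18208 and 16747 in KO (log2 -1.26 ± 0.50, SE; limma adjusted p = 0.765). The fatty acid, interferon, clock, Notch, Wnt, TGF-beta, apoptosis and DNA damage lists had medians between -0.08 and 0.08.

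**Figure D3:**
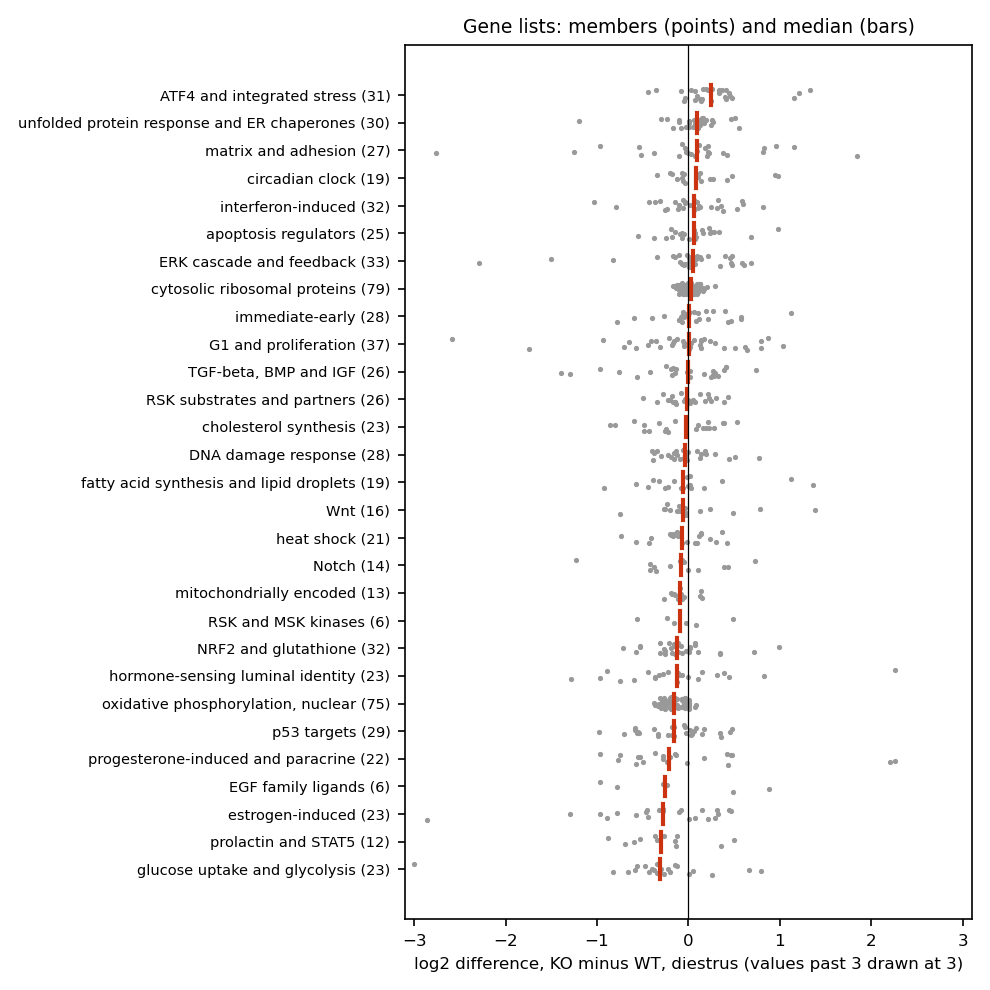
Log2 differences between KO and WT at diestrus (x axis) of the tested members of 29 gene lists (rows, with the number of members); points are genes and red bars are medians, which run from -0.31 for glucose uptake and glycolysis to 0.25 for the ATF4 list. In the oxidative phosphorylation list the 75 members form a narrow band with its median at -0.15.

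Markers of other cell types had sums above 0 in all 4 diestrus libraries. The 3 erythroid markers in the table summed to 132 and 58 normalized counts in WT and 313 and 450 in KO, with Hba-a1, an alpha globin, at 60 and 28 in WT and 163 and 234 in KO. The 8 fibroblast markers summed to 657 and 593 in WT and 111 and 119 in KO, nearly all from Dcn (decorin; 615 and 561 in WT, 64 and 99 in KO; log2 -2.87 ± 1.11, SE; limma adjusted p = 0.729). Col3a1, the other fibroblast marker tested, overlapped (13 and 3 in WT, 21 and 7 in KO). The 10 macrophage markers summed to 659 and 589 in WT and 449 and 444 in KO. Of the 6 tested, 1 was above and 4 were below WT in both KO libraries (21.4% and 21.6% of all tested genes). The antigen presentation gene Cd74 had 255 and 157 in WT and 60 and 71 in KO. Cd68 was above WT (77 and 100 in WT, 134 and 115 in KO), and Csf1r overlapped (217 and 278 in WT, 236 and 234 in KO). The 6 endothelial markers summed to 1175 and 985 in WT and 866 and 806 in KO. The sums of luminal progenitor markers (4604 and 2405 in WT, 3748 and 3831 in KO) and of basal markers (910 and 572 in WT, 888 and 440 in KO) overlapped between the genotypes. Adipocyte markers summed to at most 61 in any of the 4 libraries and lymphocyte markers to 130 and 107 in WT and 101 and 88 in KO. Erythroid, fibroblast, macrophage, endothelial and lymphocyte sums thus did not overlap between WT and KO at diestrus, where 43.1% of all tested genes had no overlap either. At estrus the fibroblast sums of the KO libraries ran from 109 to 3103 and the erythroid sums of the WT libraries from 53 to 421. Lymphocyte sums at estrus were 92, 58 and 70 in WT and 188, 150 and 139 in KO, the other order. The part of these cell types in the other differences was not tested.

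The genotype differences at diestrus and at estrus rest on separate libraries and shared 1 called gene. The calls at the 2 stages are not independent, because both used 1 spread per gene from all 10 libraries. At estrus 637 of the 15180 genes (4.2%) were called. Of these, 346 (54.3%) had the same sign at diestrus, against 50.7% of all tested genes. An unadjusted p under 0.05 (limma) with that sign was found at diestrus for 49 of the 637. Over all tested genes 899 (5.92%) had such a p in either direction, and the share with the same sign was not counted. Ank was called at both stages, which is 1 of the 6 genes called at diestrus and 1 of the 637 called at estrus. Over all tested genes the log2 differences at the 2 stages had a Pearson r of 0.145, given as a description, since genes are not independent. A log2 difference beyond 1 in either direction was found for 690 genes at diestrus and 620 at estrus, and the SD of the log2 differences over all tested genes was 0.489 and 0.502, with 2 libraries a group at diestrus and 3 at estrus.

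A direct test of the difference between the stages called 0 genes (0.0%; limma), with 2150 genes (14.2%) at an unadjusted p under 0.05. It called 6 with library weights, 3 with quantile normalization, 3 without KO estrus 3 and 2 without WT estrus 2. Among genes with a mean of at least 50, Gm8730, a processed pseudogene, had the smallest p (limma adjusted p of the difference 0.0812). It had 187 and 188 normalized counts in WT and 219 and 236 in KO at diestrus and a log2 difference of 2.66 at estrus. Dynlt1b, a dynein light chain, was next among them with log2 differences of -0.15 at diestrus and 1.17 at estrus (adjusted p = 0.0936). Il6st, the shared receptor subunit gp130, had 3233 and 3387 in WT and 4414 and 4550 in KO at diestrus (log2 0.44 ± 0.17, SE). At estrus Il6st had 3049, 3948 and 3276 in WT and 1621, 2014 and 1869 in KO and was called lower there (log2 -0.90), and the difference between the stages was 1.33 ± 0.22 (SE; adjusted p = 0.156). Rasd1 had 1652 and 2928 in WT and 639 and 871 in KO at diestrus, with a log2 difference of -1.56 there and of 0.45 at estrus (adjusted p of the difference 0.156). The deubiquitinase gene Cyld (0.30 at diestrus, -0.91 at estrus), Mgea5 (0.16 and -0.92), Dynlt1a (-0.04 and 1.03), Stmn1 (-0.64 and 1.48), Lrmda (2.93 and -0.60) and Hist1h2ao (-0.82 at diestrus, positive at estrus) came after these, each with an adjusted p of 0.165. Words shared with other genes were not counted for Gm8730, Dynlt1a, Dynlt1b or Hist1h2ao, so whether their reads belong to related copies was not tested. Below that mean of 50, D630003M21Rik had a difference between the stages of -3.26 ± 0.52 (SE, limma adjusted p = 0.156).

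**Figure D4:**
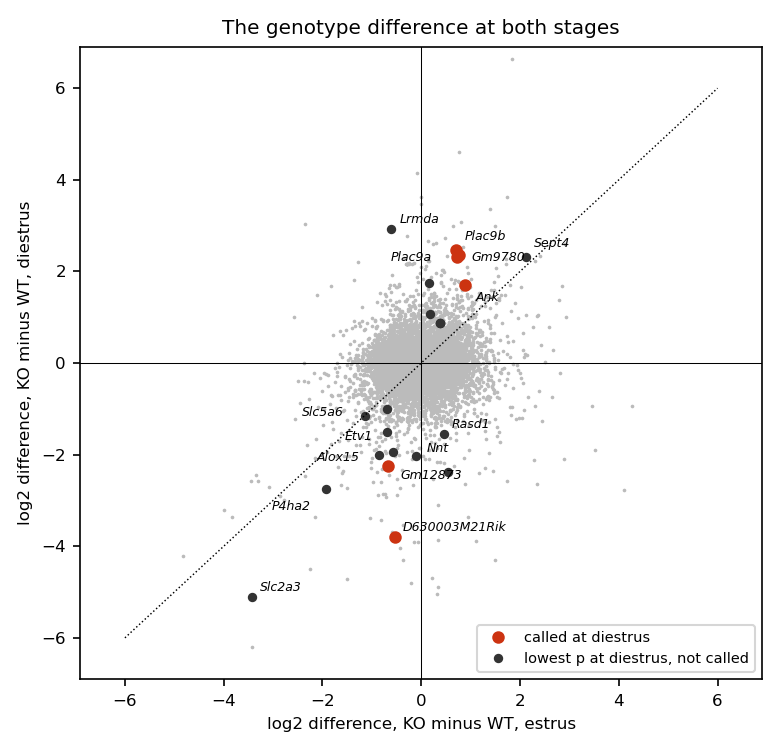
Log2 difference between KO and WT at estrus (x axis) and at diestrus (y axis), 1 point per tested gene; red points were called at diestrus, black points are the genes of lowest unadjusted p at diestrus that were not called, and the dotted line marks equal differences. Sept4, Slc5a6, P4ha2 and Slc2a3 lie in the same quadrant at both stages, Nnt lies near 0 at estrus and D630003M21Rik at -0.54, and Rasd1 and Lrmda change sign.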

How the data were processed

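RNA of sorted mammary luminal cells was sequenced in 10 libraries, of which the 4 from diestrus were compared. Per the submitters' processing notes, the authors used STAR, HTSeq and DESeq2 with the build mm10 (no versions or settings given). Deposited by the authors was a score for each gene and library, namely read counts that had been normalized and then rounded to integers; they are not raw counts, and no count test was used. Of the whole numbers from 1 to 150, between 0 and 24 were never seen in a library. Depth before scaling is not given, and precision rests on 2 libraries per group.

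The table held 26312 genes, 26249 with a symbol in GENCODE M21 (GRCm38) and 63 without. The test covered 15180 genes whose mean over the 10 libraries was 10 or more, on the log2(value + 1) scale. All 10 libraries entered a limma fit (limma 3.58.1, R 4.3.3) with 1 mean for each of the 4 groups and a spread that follows the level (6 residual degrees of freedom), because 2 against 2 libraries leave few. Two-sided p values were Benjamini-Hochberg adjusted across every tested gene, with a threshold of 0.05. Fold changes are on the log2(value + 1) scale and understate changes of low genes. Single values of the kinase and sort genes were compared by exact permutation. The 38 gene lists were described by counts and medians. Named genes were the RSK and MSK kinases, the sort genes, called genes with a mean of at least 50 and an established symbol without overlap (up to 15 per direction, filled to 10 by smallest unadjusted p), up to 3 members per list and 10 genes of the contrast between stages. The comparison, members and lists were chosen with earlier results of these data known. The fit was tested on simulated data. Alternatives were other pseudocounts, filters, scalings and spread estimates, library weights, a replicate block, a fit of the diestrus libraries only, and omission of single libraries. Plots used matplotlib 3.10.9 under Python 3.11.15.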

Additional observations from a re-analysis of the deposited data

How the results depend on the processing

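The 6 calls at diestrus (4 higher, 2 lower in KO) were 7 with a pseudocount of 0.5, and 6 with a pseudocount of 5 or trimmed mean scaling. There were 0 calls (0 higher, 0 lower) without the filter on low values, where 26312 genes were tested and 1413 had an unadjusted p under 0.05. A mean of at least 50 gave 3, all higher and 0 lower. Libraries scaled to equal totals gave 4 (3 higher, 1 lower), quantile normalization 5 (4 higher, 1 lower) and a fit without the trend 2 (1 higher, 1 lower). Library weights gave 147 (51 higher, 96 lower) and the diestrus libraries alone 98 (45 higher, 53 lower). The difference between the stages gave 3 calls with quantile normalization and 6 with library weights. With the replicate number as a block there were 6 calls (3 higher), 4 of them shared with the fit without it, and Ank (adjusted p = 0.0549) and Gm12873 (0.0519) were lost; the numbers were not shown to pair the samples, since same-numbered diestrus libraries had a correlation of deviations of -0.0363. Leaving out 1 library at a time gave from 0 to 28 calls, from 0 to 12 higher and from 0 to 16 lower, and from 0 to 3 for the difference between the stages. The lowest value came from each diestrus library (limma; 437 to 859 genes at an unadjusted p under 0.05) and the highest from KO estrus 3; WT estrus 1 gave 21, WT estrus 2 gave 1, KO estrus 1 gave 5, and KO estrus 2 and WT estrus 3 gave 9 each. Leaving out estrus libraries was added after the data were seen. The fit used 1 spread per gene for all groups. The root mean variance within a group (log2 scale) was 0.342 in KO and 0.357 in WT at diestrus. At estrus it was 0.440 in KO and 0.447 in WT. Whether this or anything else caused the shifts in the calls was not tested. The sign of Rps6ka2 turned with equal totals (log2 0.009) and quantile normalization (0.124). With 1 library left out, the log2 difference ran from -0.377 to 0.323 for Rps6ka2, from -0.367 to 0.041 for Rps6ka1, from -0.208 to 0.111 for Itga6, from -0.040 to 0.206 for Rps6ka3 and from -0.133 to 1.101 for Rps6ka6. Without 1 diestrus library, between 8 and 13 of the 38 list medians moved by more than the spread between libraries, and 15 of the 30 lists other than cell type markers had a median that changed sign under at least 1 such omission. Of the 764 genes of the lists, 0 were called in the fit reported above, 10 with library weights and 5 with the diestrus libraries alone.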
